A study of Mus musculus with 3 samples.

Results

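Rora, Gata3 and Ahr encode transcription factors that steer helper T cells, and their transcripts were read in alloantigen-specific CD4+ T cells from a transplanted heart and from the spleen. The 3 genes were taken by symbol from the 28692 genes of the deposited matrices and were picked with their levels in these libraries already known. The higher levels of Rora and Ahr in the graft and the similar level of Gata3 are therefore a description and carry no test. The cells were wild-type (WT) TEa cells, CD4+ T cells that carry a transgenic T cell receptor for the BALB/c alloantigen I-E alpha. Congenically marked naive TEa cells were transferred into C57BL/6 mice. These were then given BALB/c heart grafts, and the transferred cells were sorted 7 days after transplantation. The compared groups were TEa cells from the heart allograft and TEa cells from the spleen, both wild type and both transferred. Each group was 1 library, the number of mice behind a library is not given in the sources used here, and the effect of tissue cannot be told apart from that of the library. No difference below has a replicate check. A library of Ldha-/- TEa cells from the spleen was not analysed here.

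RORalpha, the product of Rora, is a nuclear receptor that binds ROR response elements. In mice it takes part in Th17 cells, is needed for type 2 innate lymphoid cells (ILC2), and drives clock genes. GATA3 is a zinc finger factor needed for the development of CD4+ T cells. It is the lineage factor of Th2 cells, in which it opens the locus of Il4, Il5 and Il13, and mature T cells of other lineages keep a lower level of it. AHR, the aryl hydrocarbon receptor, waits in the cytosol with HSP90 until a ligand is bound, then pairs with ARNT and binds dioxin response elements. It is known in T cells for Il22, for Il10 and for Th17 and type 1 regulatory cells.

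After filtering, 3987 heart cells and 6569 spleen cells were read, with medians of 8237 and 7988 unique molecular identifiers (UMIs) per cell and 42292356 and 56239410 UMIs in all. T cell markers were present at 6802 CPM (UMIs of a gene per fixed number of UMIs in its library) in heart cells and 6198 CPM in spleen cells, and all 6 of the listed markers were found in both. Cycling cells were 12.97% of heart cells and 2.80% of spleen cells. A UMI of the Trbv19 or Trav14 segments, which the TEa receptor uses, was found in 59.7% of heart cells and 43.9% of spleen cells. A gene with 0 UMIs could still be at 0.0709 CPM in the graft and 0.0533 CPM in the spleen, which is 3 counts of the total. All intervals are 95% intervals and cover counting error only.

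Rora was the member with the widest gap between the libraries. It had 4719 UMIs in heart cells and 989 UMIs in spleen cells, which is 112 CPM (108 to 115, exact Poisson) in the graft and 17.6 CPM (16.5 to 18.7) in the spleen. The heart value was 6.35 times the spleen value (5.92 to 6.80), a log2 ratio of (CPM + 1) of 2.60. Of the 6954 genes that reached 10 CPM in at least 1 library, 130 had a higher ratio. A summed level does not tell more cells with the transcript from more transcript per cell, so cells were also counted. After each cell was thinned to 1000 UMIs, Rora was seen in 10.5% of heart cells (9.55 to 11.5%, Clopper-Pearson) and 1.67% of spleen cells (1.38 to 2.01%). Without thinning the shares were 51.5% and 10.9%. Cells with Rora held 2.30 UMIs on average in heart and 1.38 in spleen. In heart 607 cells had 3 or more UMIs, with a maximum of 19, against 54 spleen cells, with a maximum of 8.

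Gata3 differed little between the libraries. It had 1877 UMIs in the graft and 2710 in the spleen, or 44.4 CPM (42.4 to 46.4) in graft cells and 48.2 CPM (46.4 to 50.04) in spleen cells. The log2 ratio was -0.12, beside a median of -0.11 over all genes past the floor, so the gene sat at the middle of the transcriptome. The ratio had an interval of 0.868 to 0.977. In thinned cells a Gata3 UMI was found in 4.67% of heart cells (4.03 to 5.37%) and 5.05% of spleen cells (4.54 to 5.61%), and without thinning in 31.7% and 30.4%. These intervals overlap.

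Ahr was also higher in the graft, at low counts. It had 646 UMIs in the graft and 287 in the spleen, or 15.3 CPM (14.1 to 16.5) in graft cells and 5.10 CPM (4.53 to 5.73) in spleen cells. The heart value was 2.99 times the spleen value (2.60 to 3.45), a log2 ratio of 1.41. Thinned shares of cells with an Ahr UMI were 1.66% (1.28 to 2.10%) in heart and 0.411% (0.271 to 0.597%) in spleen, and unthinned shares 12.8% and 3.50%. Thus 2 of the 3 genes lay past 2-fold on the higher side, where 635 of all genes past the floor did (9.13%). Another 587 (8.44%) were at least 2-fold lower, 17.6% past 2-fold in all. Since the genes were chosen on this contrast, nothing is read from that count.

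**Figure D1:**
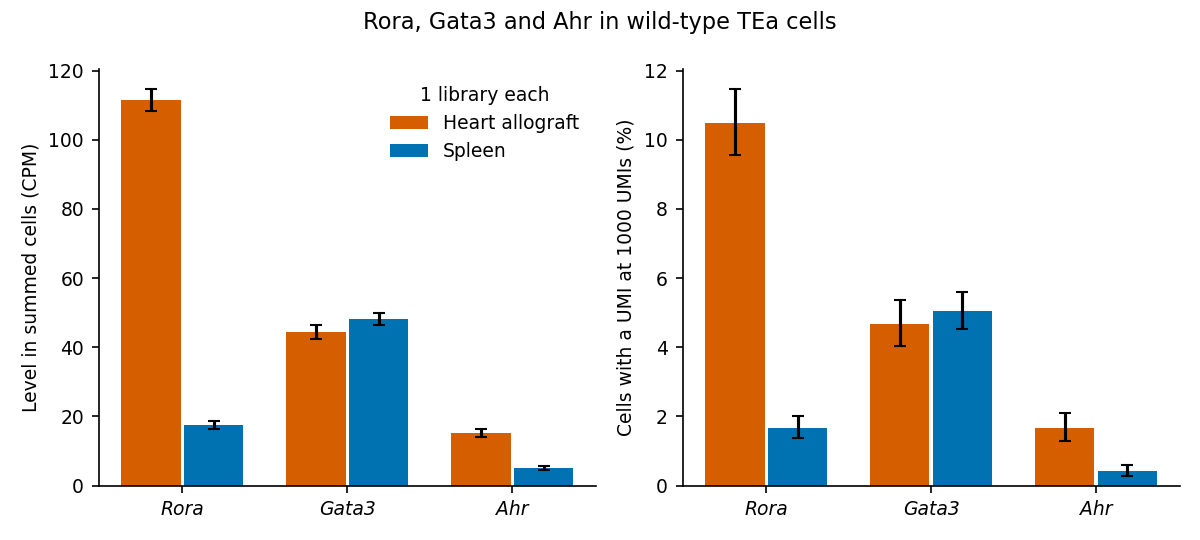
Level in CPM of the summed cells (left) and share of cells with a UMI after thinning to 1000 UMIs (right, in percent) for Rora, Gata3 and Ahr in heart allograft (orange) and spleen (blue), with bars from 0 and 95% counting intervals for 1 library each. Rora stood at 112 CPM in the graft and 17.6 CPM in the spleen, Gata3 at 44.4 and 48.2 CPM, and Ahr at 15.3 and 5.10 CPM.

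Free RNA in the droplets carried the same pattern. In barcodes with fewer than 100 UMIs, Rora was at 105 CPM in barcodes of the graft and 13.7 CPM in those of the spleen. Gata3 was at 29.9 and 27.4 CPM there, and Ahr at 13.1 and 3.16 CPM. The cluster of myeloid barcodes that was left out (Lyz2, Cd74, H2-Ab1) gave a second reading. In its 87 heart barcodes (median 24522 UMIs), thinned to 1000 UMIs, 3 held Rora (3.45%, 0.717 to 9.75%), 4 held Gata3 (4.60%, 1.27 to 11.4%) and 1 held Ahr (1.15%, 0.029 to 6.24%). T cell markers were still at 3754 CPM there, so that cluster does not lack T cell RNA. Its 14 spleen barcodes (median 9045 UMIs) held 0 Rora UMIs, with an upper Poisson bound of 28.4 CPM. The intervals of all 3 heart barcode shares overlap those of the heart cells. By level these heart barcodes had 87.9 CPM of Rora (76.6 to 100.4), 32.7 CPM of Gata3 (25.9 to 40.6) and 19.0 CPM of Ahr (13.9 to 25.2). The Rora and Gata3 intervals lay below those of the heart cells and that of Ahr overlapped, so this cluster sets no clear background for the 3 genes.

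On GRCm38 with GENCODE M21, Rora lies at chr9:68653786-69388246 on the plus strand, a gene of 734461 bases with 6 transcripts, of which 2 are coding. Gata3 lies at chr2:9857078-9890034 and Ahr at chr12:35497974-35535038, both on the minus strand. Genes that overlap Rora and Gata3 were nearly silent. Gm15511, opposite Rora, had 1 UMI in heart and 0 in spleen, Gm13256, opposite Gata3, had 4 and 6, and 9230102O04Rik, on the same strand as part of Gata3, had 5 and 3. Gm48236, opposite Ahr, was not analysed here. The start regions of Rora and Gata3 in RefSeq (GRCm38.p6, 250 bases before to 50 after the start) are shown because AHR, whose transcript was also higher in the graft, reads the core GCGTG. Capitals mark that core or its reverse complement CACGC, searched on both strands. Rora (chr9:68653536-68653835, plus strand) has 1 match, at -167 from the start, and Gata3 (chr2:9878551-9878850, minus strand) has 0. Of 32851 promoters of this length, 32.4% hold the core, so a match is common and is only a description. No start region of Ahr was used here.
Rora promoter: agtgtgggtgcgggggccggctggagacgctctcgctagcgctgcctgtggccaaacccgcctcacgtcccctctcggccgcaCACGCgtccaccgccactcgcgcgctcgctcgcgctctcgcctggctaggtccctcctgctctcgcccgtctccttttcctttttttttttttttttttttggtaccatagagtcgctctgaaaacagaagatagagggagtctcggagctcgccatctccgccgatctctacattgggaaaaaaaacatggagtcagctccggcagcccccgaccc
Gata3 promoter: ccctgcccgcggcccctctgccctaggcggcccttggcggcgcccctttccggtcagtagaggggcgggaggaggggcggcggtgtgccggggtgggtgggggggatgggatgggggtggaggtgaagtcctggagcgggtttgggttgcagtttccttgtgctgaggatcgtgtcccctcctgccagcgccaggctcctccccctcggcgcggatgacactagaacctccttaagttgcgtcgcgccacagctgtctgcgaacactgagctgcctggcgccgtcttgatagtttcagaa

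Within each library the 3 genes were read in clusters of at least 50 cells. Clusters were built from the same transcripts, so these levels describe and do not test. Rora was highest in heart cluster 1 (2210 cells led by Cxcr6, Itgae and Crem) at 130 CPM (125 to 135). It stood at 117 CPM (110 to 124) in heart cluster 3 (1167 cells led by the heat shock genes Hspa1a and Hspa1b and by Ifng) and 81.0 CPM (76.1 to 86.1) in the cycling heart cluster 5 (581 cells). Every heart cluster lay above every spleen cluster. In spleen, cluster 4 (873 cells led by Ccl5, Tmem37 and Ccr2) had the most at 47.1 CPM (42.3 to 52.3), and cluster 8 (138 cells led by Cenpf and Hmmr) had 40.8 CPM (32.8 to 50.2). Cluster 10 (84 cells led by Cdca7 and Ung) had 29.2 CPM (20.6 to 40.3). Each of these intervals overlaps that of its neighbour. Spleen clusters 7 (Ifit3), 0 (Dapl1) and 6 (Idi1) followed at 14.4, 14.1 and 13.2 CPM, with overlapping intervals, and that of cluster 7 also overlaps that of cluster 10. Spleen cluster 2 (2035 cells led by Egr2, Wnt10a and Id3) had the least at 7.23 CPM (6.02 to 8.60).

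Gata3 had another order. Its heart levels were alike, at 43.2 CPM (40.4 to 46.2) in cluster 1, 46.1 CPM (41.8 to 50.7) in cluster 3 and 44.9 CPM (41.3 to 48.8) in cluster 5. Its highest levels were in spleen, at 72.5 CPM (61.7 to 84.7) in cluster 8 and 63.5 CPM (57.9 to 69.5) in cluster 4. The intervals of both spleen clusters lay above those of all heart clusters. Spleen cluster 10 had 53.7 CPM (41.7 to 68.1), and the other spleen clusters lay between 37.8 and 48.0 CPM.

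Ahr split the spleen. Heart clusters 1, 3 and 5 had 13.9 CPM (12.3 to 15.6), 18.8 CPM (16.2 to 21.9) and 14.6 CPM (12.6 to 16.8). Spleen clusters 4, 8 and 10 reached the same range, at 17.0 CPM (14.1 to 20.2), 15.9 CPM (11.1 to 22.1) and 21.3 CPM (14.1 to 31.0). In spleen cluster 7 Ahr was at 6.81 CPM (3.11 to 12.9), and in clusters 0, 2 and 6 it was at 2.21, 1.93 and 1.89 CPM. In settings added after the data had been seen, heart clusters 1 and 3 over spleen cluster 4 gave a log2 ratio of -0.13 for Ahr, 1.40 for Rora and -0.52 for Gata3. Cycling cells alone gave -0.042 for Ahr, 1.25 for Rora and -0.47 for Gata3. The direction for Ahr thus turned in both settings, while Rora stayed higher in the graft.

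**Figure D2:**
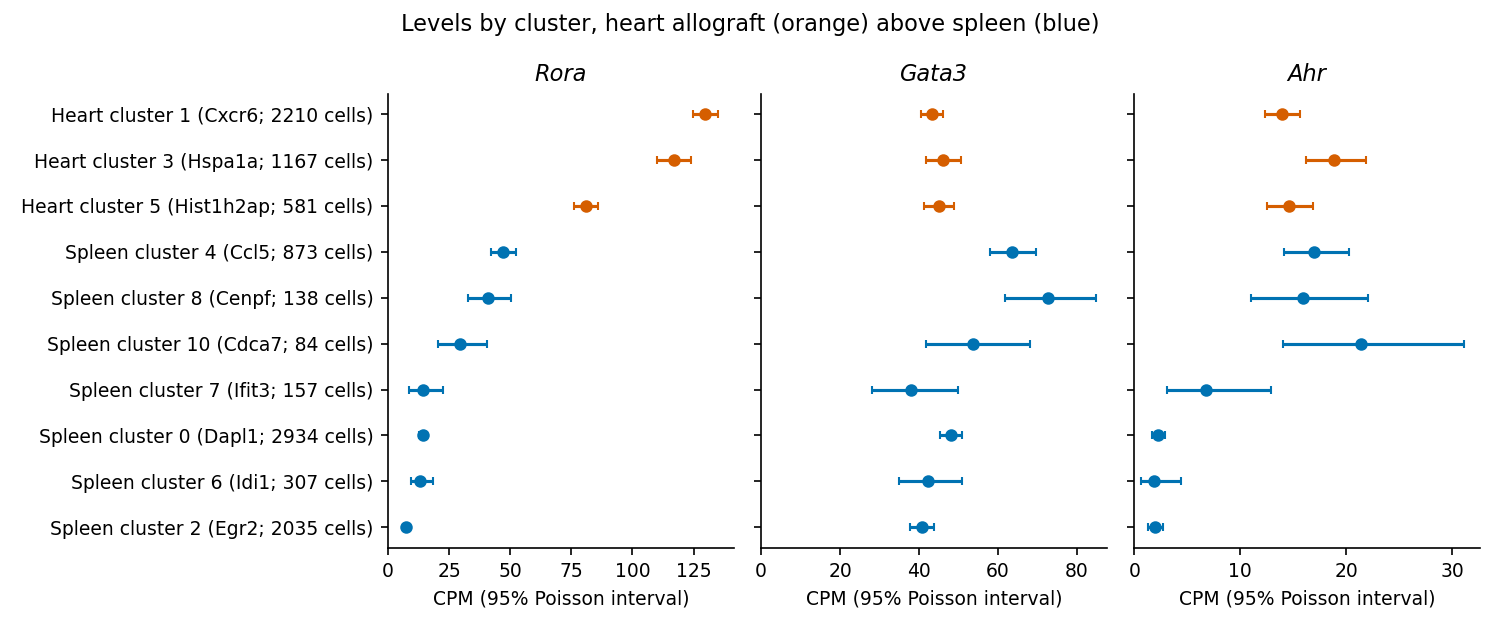
Levels of Rora, Gata3 and Ahr (CPM, 95% Poisson intervals) in 3 clusters of heart cells (orange, top) and 7 clusters of spleen cells (blue). All heart clusters lay above all spleen clusters for Rora, whereas spleen cluster 4 matched the heart clusters for Ahr and lay above them for Gata3.

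The genes whose levels followed each member most closely were named by Pearson's r of log2(CPM + 1) over the 10 library-by-cluster sums. These points share 2 libraries and the clustering, so r is a description. Closest to Rora were Ifngr1, the ligand-binding chain of the interferon gamma receptor (r = 0.99; 808 CPM in the graft and 84.1 CPM in the spleen), Dhrs1, Ctla2a, Cggbp1 and Runx2, a Runt family factor (45.4 and 7.79 CPM), each with r = 0.98. Closest to Ahr were Tbx21, the Th1 lineage factor T-bet (r = 0.98), Mthfsl, Plek, S100a4 and Lilr4b. Closest to Gata3 were Rcbtb2 (r = 0.95), Cxxc1, Ngdn, Tmod3 and the cell cycle phosphatase gene Cdc25b. Between the members r was 0.81 for Rora and Ahr, 0.25 for Rora and Gata3 and 0.51 for Gata3 and Ahr. Over the 7 spleen clusters alone r was 0.89 both for Rora and Gata3 and for Rora and Ahr. Over the 3 heart clusters, too few to read an order from, it was -0.33 and 0.16. Over those 3 heart clusters Plek, S100a4 and Lilr4b ran opposite to Ahr (r = -0.96, -0.81 and -0.15). Ngdn and Tmod3 ran opposite to Gata3 there (r = -0.98 and -0.13), and Runx2 had r = 0.058 with Rora.

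Cells were next split by a thinned UMI of an effector, chemokine or homing gene. In the graft Rora was lower in cells with the cytotoxic gene Gzmb, at 74.9 CPM with and 118 CPM without (ratio 0.632, 0.575 to 0.694). It was likewise lower in heart cells with Gzmk, another granzyme gene (75.0 and 116 CPM), and in cycling heart cells (80.4 and 122 CPM). It was higher in heart cells with Cxcr6, a chemokine receptor of tissue T cells, at 133 CPM with and 105 CPM without. In spleen the Gzmb and cycling splits ran the other way for Rora. Spleen cells with Gzmb had 47.7 CPM and those without 16.7 CPM, and cycling spleen cells had 33.2 CPM and the others 16.7 CPM. Spleen cells with Cxcr6 had 48.8 CPM and those without 16.9 CPM.

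For Gata3 the widest split in heart was by Ifng, the Th1 cytokine. It was at 62.9 CPM in cells with a UMI and 42.9 CPM in cells without (ratio 1.47, 1.26 to 1.70). Split by any Ifng UMI before thinning, the heart ratio was 1.16 (1.06 to 1.27). In spleen the Ifng ratio for Gata3 was 1.13 (0.788 to 1.56) thinned and 1.32 (1.16 to 1.49) before thinning. Spleen cells gave 78.6 CPM with Gzmb and 47.3 CPM without. Ahr in heart was near even over Gzmb, at 14.6 CPM with and 15.4 CPM without. Its widest heart split was by Hspa1a, at 27.2 CPM with and 14.9 CPM without (1.82, 1.26 to 2.55). In spleen, Ahr was at 40.6 CPM in the 149 cells with Gzmb and 4.10 CPM in the others, a ratio of 9.92 (7.37 to 13.2).

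**Figure D3:**
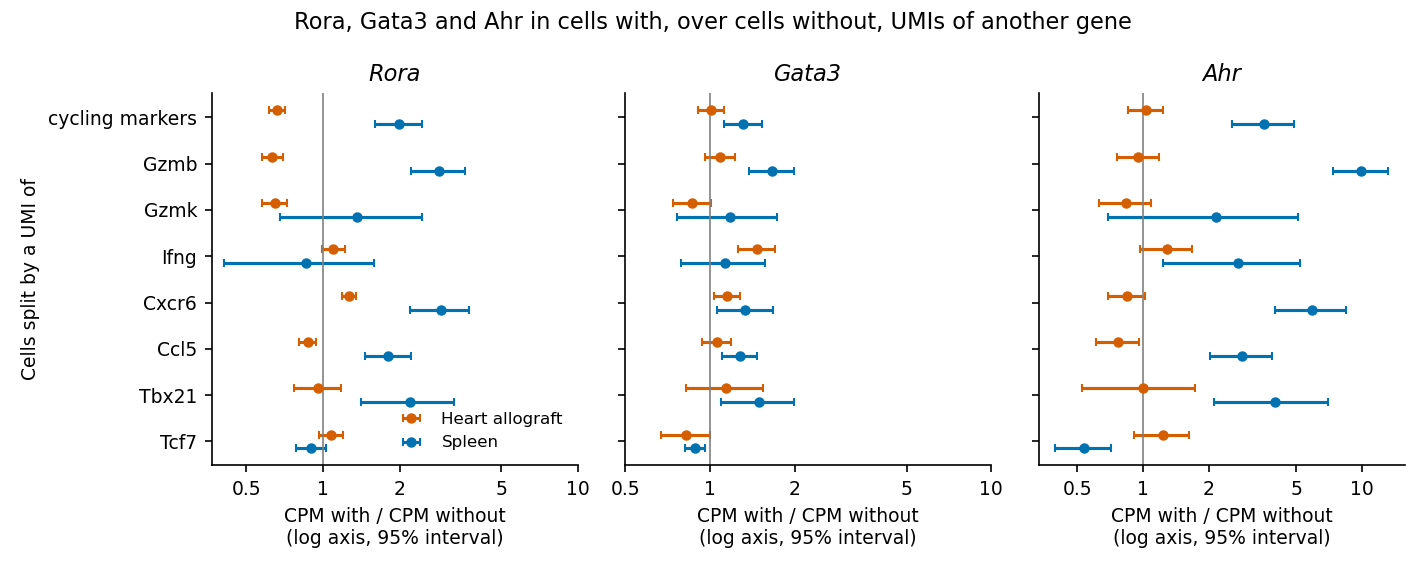
Ratio of the level of Rora, Gata3 and Ahr in cells with over cells without a UMI of the named gene (log axis, 95% intervals, cells split after thinning to 1000 UMIs) in heart allograft (orange, upper points) and spleen (blue, lower points). For Gzmb the Rora ratio was 0.632 in heart and 2.85 in spleen, and the Ahr ratio 0.948 in heart and 9.92 in spleen.

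Whether the 3 factors were found in the same cells was read against the count from their shares within 20 depth bins. In heart cells, Rora and Gata3 were found together in 700 cells where their shares gave 697, Rora and Ahr in 285 where they gave 283, and Gata3 and Ahr in 177 where they gave 193. The intervals of all 3 ratios in heart hold 1. In spleen, Rora and Gata3 were found together in 287 cells against 231 from shares (ratio 1.24, 1.10 to 1.39), and Rora and Ahr in 59 against 29.6 (1.99, 1.52 to 2.57). Gata3 and Ahr shared 98 spleen cells against 78.8 (1.24, 1.01 to 1.52). The bins set depth alike but not cluster. Rora, Gata3 and Ahr were at 47.1, 63.5 and 17.0 CPM in spleen cluster 4 and at 7.23, 40.7 and 1.93 CPM in spleen cluster 2. The part of the clusters in these ratios was not tested. After thinning the counts were too few to read, with 8, 0 and 1 spleen cells holding both genes of a pair.

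With other regulators, Rora in heart was found slightly more often than shares gave with Tcf7, a factor of stem-like T cells (1.09, 1.01 to 1.16), and with Bhlhe40 (1.06, 1.003 to 1.12). In spleen these ratios were 0.952 (0.878 to 1.03) and 2.04 (1.41 to 2.85). Rora with Tbx21 gave 0.981 (0.890 to 1.08) in heart and 1.41 (1.15 to 1.71) in spleen. With Prdm1, the gene of the effector repressor Blimp-1, Rora gave 0.953 (0.845 to 1.07) in heart and 2.07 (1.34 to 3.06) in spleen. With Bcl6, the Tfh lineage factor, it gave 1.07 (0.954 to 1.19) in heart and 0.729 (0.530 to 0.979) in spleen. Ahr with Tbx21 gave 0.997 (0.827 to 1.19) in heart and 1.81 (1.33 to 2.40) in spleen. No difference between the libraries in these ratios was tested.

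**Figure D4:**
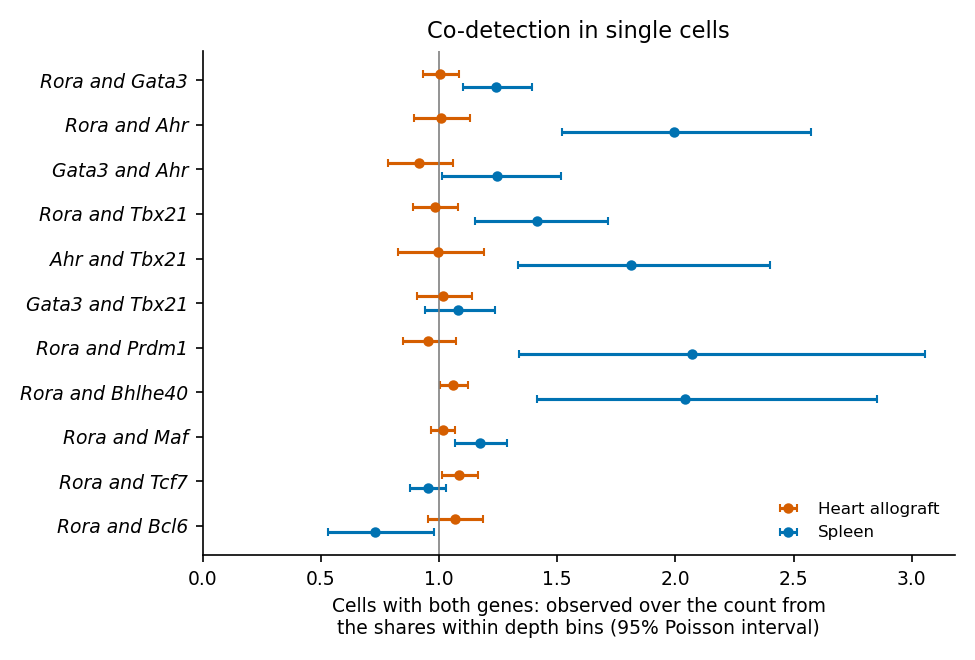
Number of cells with UMIs of both genes over the number given by their shares within 20 depth bins (95% Poisson intervals), in heart allograft (orange, upper points) and spleen (blue, lower points). Rora with Ahr stood at 1.01 in heart and 1.99 in spleen, and Rora with Bcl6 at 1.07 in heart and 0.729 in spleen.

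Cells with a thinned UMI of a member were also set against the rest of their library, over genes with at least 50 CPM in either set. Among the 418 heart cells with Rora, 0 of 2308 genes were at least 2-fold higher than in the other heart cells and 3 were at least 2-fold lower. The genes highest in ratio are thus given as the top of a ranking. Heart cells with Rora had 50.8 CPM of Ramp1, a subunit of the receptor of the peptide CGRP, against 27.8 CPM in the others. Tnfsf11, the gene of RANKL, was at 119 CPM against 74.9 CPM, and Emb at 652 against 424 CPM. The 3 lower genes were Hspa1a at 10.7 CPM against 78.5 CPM and the S phase genes Hist1h1b (87.1 and 184 CPM) and Rrm2 (42.8 and 88.9 CPM). Split the other way, by a thinned Hspa1a UMI, heart cells had 106 CPM of Rora with and 112 CPM without. That ratio was 0.945 (0.793 to 1.12), so Rora was near even over Hspa1a. Among the 186 heart cells with Gata3, 1 of 2292 genes was at least 2-fold higher and 1 was at least 2-fold lower. The higher gene was Ccl4 (150 and 35.6 CPM), with 84.1% of its UMIs in 1 cell, and the lower was Hspa1a (31.8 and 74.0 CPM). Within 2-fold, these cells had more Gzmb (598 and 323 CPM) and Ifng (144 and 91.7 CPM) and less Tcf7 (50.2 and 79.2 CPM). Of their Gzmb UMIs 19.9% came from 1 cell. The 66 heart cells with Ahr held 1076 CPM of the chemokine gene Ccl4 against 23.2 CPM, but 98.8% of those UMIs came from 1 cell, and without the top cell of each set the values were 13.1 and 17.1 CPM. In the heart cells with Ahr, Hspa1a stayed higher without its top cells, at 190 CPM against 65.3 CPM.

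In spleen, the 110 cells with Rora were higher in Lgals3, the gene of galectin-3 (198 and 45.5 CPM), Gna15 (72.3 and 17.5 CPM) and Il18r1, a chain of the IL-18 receptor (102 and 29.9 CPM). They were lower in Dapl1 (105 and 224 CPM), Tox (34.6 and 67.3 CPM) and Id3 (240 and 404 CPM). Mki67 was at 170 CPM against 38.5 CPM, with 56.3% of its UMIs in 1 cell. Lgals3 had 24.2% of its UMIs in 1 cell, and without the top cell of each set it was at 156 and 44.4 CPM. Among the 332 spleen cells with Gata3, 2 of 2281 genes were at least 2-fold higher and 0 were at least 2-fold lower. The higher genes were Gzmb (118 and 49.6 CPM) and Ccr2 (61.3 and 29.6 CPM). S100a4 was higher within 2-fold (926 and 504 CPM). Of the Gzmb UMIs in these cells 26.9% came from 1 cell. Without the top cell of each set Gzmb was at 86.3 and 48.3 CPM and Ccr2 at 57.6 and 29.3 CPM, both within 2-fold. Ahr was seen in 27 thinned spleen cells, too few to rank genes.

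Beyond the 3 genes, a list of 31 helper lineage regulators was read, of which 25 passed the floor of 10 CPM in either library. Without Rora, Gata3 and Ahr 22 remain, of which 6 were at least 2-fold higher in heart (27.3%, beside 9.13% of all genes) and 5 at least 2-fold lower (22.7%, beside 8.44%). Of the 6 higher genes, Bhlhe40 and Prdm1 passed the floor only through heart, and of the 5 lower ones Id3 passed it only through spleen. With the 3 genes the median log2 ratio of the 25 was 0.65. Nothing is read from these shares or from those of the lists that follow, since genes that pass the floor through 1 library had to differ. Bhlhe40, a repressor that in mice keeps Il10 low in effector cells, stood furthest on the higher side, at 151 CPM in the graft and 3.01 CPM in the spleen (5.24). Prdm1 was at 15.9 CPM in the graft and 1.90 CPM in the spleen (2.54). Id3, an inhibitor of E proteins in stem-like and Tfh cells, was at 6.20 CPM in the graft and 401 CPM in the spleen (-5.81). Tbx21 was at 23.5 and 13.1 CPM (0.80) and Bcl6 at 18.1 and 10.8 CPM (0.69), both within 2-fold. Tbx21 turned to -0.45 in cycling cells alone and -0.55 in heart clusters 1 and 3 over spleen cluster 4. The list's median was -0.042 in cycling cells. Foxp3, the regulatory T cell factor, was below the floor, at 2.84 CPM in the graft and 0.44 CPM in the spleen.

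**Figure D5:**
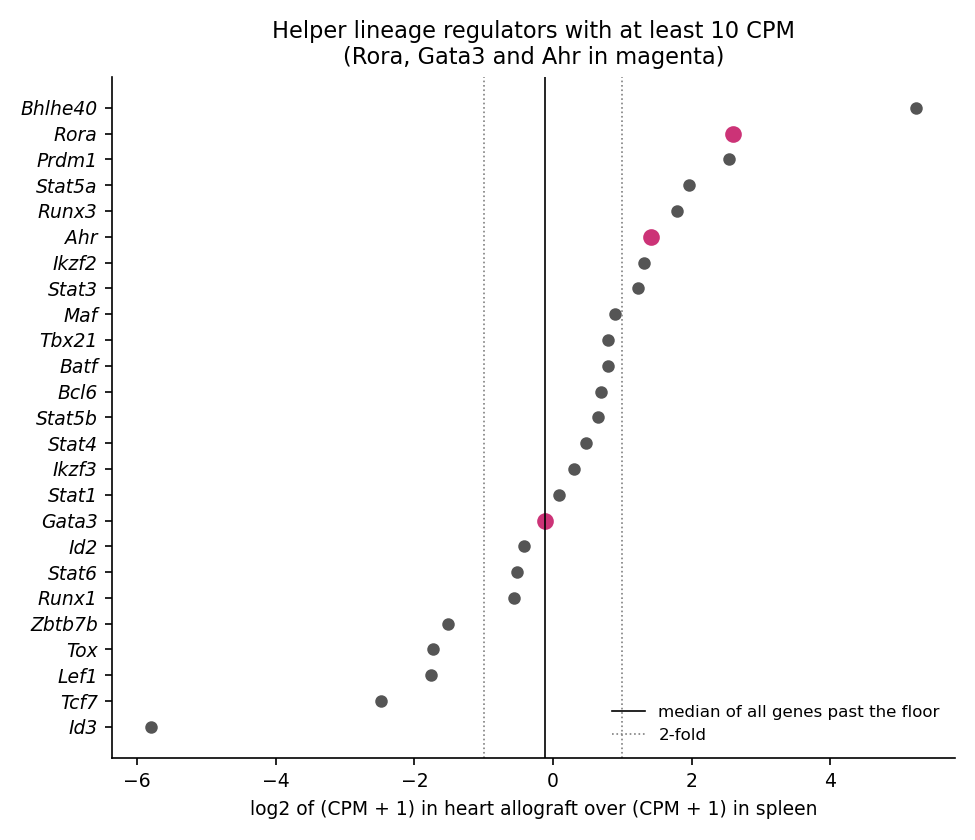
Log2 ratio of (CPM + 1), heart allograft over spleen, for the 25 helper lineage regulators that reached 10 CPM in at least 1 library, with Rora, Gata3 and Ahr in magenta. Rora (2.60) stood below Bhlhe40 (5.24) and above Prdm1 (2.54), Ahr stood at 1.41, and Gata3 (-0.12) lay on the median of all genes (-0.11).

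The Th2 program, which GATA3 governs, had 7 of 20 members past the floor, 1 higher (beside 9.13% of all genes), 1 lower (beside 8.44%) and a median of 0.89. The higher gene, which passed the floor only through heart, was Nfil3, a basic leucine zipper repressor. It was at 36.4 CPM in the graft and 0.98 CPM in the spleen (4.24). Zfpm1, which encodes the GATA cofactor FOG-1, was at 23.8 CPM in the graft and 55.7 CPM in the spleen (-1.20). Ecm1, which encodes an extracellular matrix protein, was at 10.4 CPM in the graft and 4.84 CPM in the spleen (0.97). Il4ra, the receptor chain for IL-4 and IL-13, was at 43.0 CPM in the graft and 22.5 CPM in the spleen (0.90). The cytokines were below the floor and sat in few cells. Il13 had 244 UMIs in 59 heart cells, 35.2% of them in 1 cell, and 0 UMIs in spleen, or 5.77 CPM in the graft and at most 0.0533 CPM in the spleen by the limit given above. Il5 had 2 UMIs in heart and 0 in spleen. Il4 had 56 UMIs in 20 heart cells and 112 UMIs in 67 spleen cells, 57 of which were in cluster 2. Heart cells with Il13 had 63.3 CPM of Gata3 and those without 43.7 CPM (ratio 1.45, 1.15 to 1.80), at median depths of 17304 and 8194 UMIs. Heart cells with Il1rl1, the IL-33 receptor, had 60.9 CPM of Gata3 and those without 43.4 CPM (ratio 1.40, 1.17 to 1.66). Their median depths were 15033 and 8176.5 UMIs. The Il13 and Il1rl1 splits took any UMI before thinning, and the part of depth in them was not tested. GATA family genes and cofactors had 2 of 10 members past the floor, with 0 higher (beside 9.13% of all genes) and 1 lower (beside 8.44%), Zfpm1, and Ldb1 at 47.0 and 57.3 CPM (-0.28).

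The Th17 program, in which Rora and Ahr take part, had 4 of 17 members past the floor, with 1 higher (beside 9.13% of all genes), 2 lower (beside 8.44%) and a median of -0.86. Il6st and Il6ra, which form the IL-6 receptor, were at 11.2 and 12.7 CPM in heart and at 78.8 and 77.7 CPM in spleen (-2.71 and -2.52). Stat3, which relays IL-6 signals, was at 172 CPM in the graft and 73.3 CPM in the spleen (1.22), and Batf at 132 and 75.9 CPM (0.79). Il17a had 132 UMIs in 8 heart cells, 34.8% of them in 1 cell, and 0 in spleen. Il17f had 6 UMIs in heart and 1 in spleen, and Il22 had 0 in both. The list's median was 0.68 with a floor of 1 CPM and 0.05 in heart clusters 1 and 3 over spleen cluster 4.

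The AHR complex and its targets had 8 of 16 members past the floor, with 2 higher (beside 9.13% of all genes), 0 lower (beside 8.44%) and a median of 0.44. Both higher genes, Tiparp and Entpd1, passed the floor only through heart. The partner Arnt (15.4 CPM in the graft and 15.03 CPM in the spleen) was close to even. The chaperone genes Hsp90aa1 (607 and 338 CPM) and Hsp90ab1 (1685 and 1114 CPM) had log2 ratios of 0.84 and 0.60. Tiparp, an AHR target that feeds back on the receptor, was at 33.9 CPM in the graft and 8.18 CPM in the spleen (1.93), and Entpd1, the ectonucleotidase gene of CD39, at 21.3 and 2.61 CPM (2.62). Cells were split by any UMI of Tiparp or Entpd1 before thinning. Heart cells with Tiparp had 18.3 CPM of Ahr and those without 14.0 CPM (ratio 1.30, 1.10 to 1.53), at median depths of 9056 and 8038 UMIs. In spleen that ratio was 1.40 (0.919 to 2.06). Over Entpd1 Ahr was even in heart, with a ratio of 0.976 (0.806 to 1.18), and had a ratio of 3.46 (2.15 to 5.30) in spleen. Median depths with and without Entpd1 were 10283 and 8014 UMIs in heart and 9156 and 7973 UMIs in spleen. The classic targets were at or near 0, with 1 UMI of Cyp1a1 in heart and 5 in spleen, and 0 of Cyp1b1 and of Ahrr in both.

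Among ROR and clock genes 6 of 19 passed the floor, 3 were higher (beside 9.13% of all genes), 1 was lower (beside 8.44%) and the median was 0.94. The higher genes, which all passed the floor only through heart, were Bhlhe40, Nfil3 and Per1, a repressor of the clock (17.3 CPM in the graft and 4.27 CPM in the spleen, 1.79). The lower gene, which passed the floor only through spleen, was Dbp, a clock output gene. It was at 3.83 CPM in the graft and 13.6 CPM in the spleen (-1.60). Clock (18.7 and 17.9 CPM) and Cry1 (11.6 and 10.8 CPM) were near even. The median turned to -0.048 when mitochondrial, ribosomal protein and Malat1 UMIs were taken out of the totals. The start regions of Tiparp (chr3:65528197-65528496, plus strand) and Nfil3 (chr13:52980990-52981289, minus strand), from RefSeq on GRCm38.p6, are shown as those of the genes of the AHR and ROR lists that were higher in the graft and are known to answer to each factor. Capitals in Tiparp mark CACGC, the reverse complement of GCGTG, at -170. Capitals in Nfil3 mark TGACCT, the reverse complement of the ROR motif AGGTCA, at -12, which 16.3% of all promoters hold on either strand. Both are matches of letters and show no binding.
Tiparp promoter: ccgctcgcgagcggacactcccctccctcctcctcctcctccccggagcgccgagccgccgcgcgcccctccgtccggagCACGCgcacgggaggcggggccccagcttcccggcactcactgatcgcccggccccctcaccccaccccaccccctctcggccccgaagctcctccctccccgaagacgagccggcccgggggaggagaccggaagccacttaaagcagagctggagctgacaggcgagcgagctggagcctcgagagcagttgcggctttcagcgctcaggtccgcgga
Nfil3 promoter: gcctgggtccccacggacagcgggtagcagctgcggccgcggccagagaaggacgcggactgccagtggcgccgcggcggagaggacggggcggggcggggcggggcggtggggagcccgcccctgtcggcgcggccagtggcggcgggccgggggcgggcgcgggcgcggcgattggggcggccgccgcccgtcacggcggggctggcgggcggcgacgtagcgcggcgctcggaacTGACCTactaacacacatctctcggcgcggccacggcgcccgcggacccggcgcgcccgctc

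Other cells can carry these genes, so their markers were read in the kept cells. The ILC2 list without Rora and Gata3 (Il1rl1, Il17rb, Areg, Arg1, Il5, Il13, Hs3st1, Calca and Klrg1) summed to 22.9 CPM in the graft and 1.37 CPM in the spleen. The largest share was Calca at 10.6 CPM in heart and 0 UMIs in spleen. ILC3 markers summed to 1.92 CPM in the graft and 1.39 CPM in the spleen, and mast cell or basophil markers to 0 and 0.089 CPM. Gamma delta T cell markers came to 403 and 553 CPM, nearly all Trdc (397 and 551 CPM), with Tcrg-C1 at 0.97 and 0.18 CPM. CD8 T cell markers came to 17.1 and 5.35 CPM, NK markers to 0.38 and 7.79 CPM, and NKT and MAIT markers to 0.095 and 4.09 CPM. Markers of regulatory T cells came to 1867 CPM in the graft and 163 CPM in the spleen, in heart mostly Ctla4 and Tnfrsf4. Markers of monocytes or macrophages came to 333 and 206 CPM, nearly all Ctss (206 and 130 CPM) and Cst3 (119 and 71.8 CPM). Among the others Lyz2 was at 1.04 and 0.27 CPM and Adgre1 at 0 in heart. Erythroid markers came to 0.047 and 185 CPM. The part of these cells in the levels of Rora, Gata3 and Ahr was not tested. Without cycling cells the log2 ratio of Rora was 2.79, and among cells with a TEa receptor segment it was 2.52.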

How the data were processed

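The deposited wild-type values are raw UMI counts for each gene in each barcode, not normalized. Per the file headers Cell Ranger 3.0.2 wrote them. Cell Ranger 7.0.0 and Seurat 4.0.0 appear in the submitters' processing notes, with the mm10 build. Libraries were made with 10x 3' v3 chemistry per the labels' protocols, which also speak of nuclei although sorted cells are described. Whether introns and strand were used in counting is not given in the sources used here. A separate matrix of Ldha-/- spleen cells was not used here.

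Barcodes with at least 1000 UMIs, 500 genes and at most 10% mitochondrial UMIs were kept, 4074 in heart and 6583 in spleen, of which 6 barcode sequences occurred in both. They were clustered jointly (2000 variable genes, 30 principal components, 15 neighbours, leidenalg 0.10.2 at resolution 0.6, scikit-learn 1.9.0). A myeloid cluster of 87 heart and 14 spleen barcodes was removed. No doublet caller was run, and leaving out cells over 3 times the median UMI count was an alternative. Counts were summed per library and scaled to CPM with numpy 2.4.6 and scipy 1.17.1. Ratios are log2 of (CPM + 1), heart over spleen, which understates low genes. Genes that reached 10 CPM in at least 1 library were compared, and 2-fold marks size only, since 1 library per group allows no test and no p-value. Cells counted as cycling held at least 2 of the thinned UMIs of 9 markers. Intervals are exact Poisson or Clopper-Pearson, and ratio intervals are exact binomial. Functions were tested on simulated data.

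The 3 genes, the 6 lists and the rules were chosen with earlier results of these data known. Named were up to 4 members of each list with the widest ratio past the floor, defining genes such as Il4, Il13 and Cyp1a1, the 5 genes most alike in level, and examples of the 6 highest and 6 lowest genes in cells with a UMI of a member. Others named with values, among them Gzmk, Calca, Arnt, Clock and Cry1, were picked after their values were seen. Some genes that the rules take are not reported here. Start regions were found for 82 of 100 genes by symbol.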

Additional observations from a re-analysis of the deposited data

Results flagged for a closer look

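Within a library, 4 splits of cells ran in opposite directions in the graft and in the spleen, with intervals on opposite sides of 1. The difference itself was not tested, since each tissue is 1 library. Splits read in both libraries were by cycling markers, Gzmb, Gzmk, Ifng, Cxcr6, Ccl5, Tcf7 and Tbx21, each for Rora, Gata3 and Ahr. The rest of these, among them every split of Gata3, did not have intervals on opposite sides of 1. Rora in cycling over other cells had a ratio of 0.660 (0.612 to 0.712) in heart and 1.99 (1.59 to 2.45) in spleen. Rora in cells with over cells without Gzmb had a ratio of 0.632 in heart and 2.85 (2.22 to 3.62) in spleen. Over Ccl5, a chemokine gene of effector and memory cells, the Rora ratio was 0.870 (0.803 to 0.941) in heart and 1.80 (1.46 to 2.20) in spleen. The Ahr ratio over Ccl5 was 0.767 (0.608 to 0.959) in heart and 2.84 (2.02 to 3.90) in spleen. Cycling cells were deeper than the others, at medians of 18324 and 7846 UMIs in heart and 14351 and 7948 UMIs in spleen. The part of depth in these splits was not tested.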

How the results depend on the processing

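No paired analysis was possible because each group is 1 library. For the same reason no replicate could be left out. Rora was higher in heart under every alternative run, with log2 ratios of 2.46 with totals without mitochondrial, ribosomal protein and Malat1 counts, 2.56 at a mitochondrial limit of 5%, 2.79 without cycling cells, 2.52 in cells with a receptor segment, 1.25 in cycling cells only and 1.40 in heart clusters 1 and 3 over spleen cluster 4. Its ratio of shares was 6.26, and 4.72 without thinning. Gata3 had -0.28, -0.47 and -0.52 with those totals, in cycling cells and in that pair of clusters. Ahr had 1.32 with those totals, 1.80 in thinned cells, 1.12 at 5% mitochondrial UMIs and 1.16 in cells with a receptor segment. It was near even at -0.042 in cycling cells and -0.13 in that pair of clusters. The limit of 5% left 3819 heart and 4430 spleen cells.

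The median of all genes was -0.32 with those totals and 0.048 at a floor of 50 CPM. Genes at least 2-fold lower numbered 1217 with those totals, where 33.5% of genes past 2-fold were higher against 52.0% before. Genes at least 2-fold higher numbered 336 in cycling cells. At a floor of 50 CPM there were 318 higher and 131 lower genes. Ldb1 turned to 0.018 in cycling cells, and Tbx21 to -0.45 there and -0.55 in the pair of clusters. Alternatives in cycling cells and in the pair of clusters were chosen after seeing the data. The GATA list had under 3 members past the floor and got no alternatives, and the Th2 and ROR lists none at 50 CPM for the same reason. Low cytokine genes in few cells, and Ahr in thinned spleen cells, are limited by depth.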

Other observations

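Calca, which encodes calcitonin and the peptide CGRP, was found in the graft library alone. It had 448 UMIs in 186 of the 3987 heart cells, 155 of them in cluster 1, and 0 UMIs in the 6569 spleen cells. Heart cells with a Calca UMI before thinning had 132 CPM of Rora and those without 111 CPM (ratio 1.20, 1.05 to 1.35). Their median depths were 8153 and 8244 UMIs. Cluster 1 as a whole had 130 CPM of Rora, near the level of the cells with Calca. Ramp1, a subunit of the CGRP receptor, was at 50.8 CPM in heart cells with Rora and 27.8 CPM in the others, within 2-fold.

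Il10, which had 1132 UMIs in 467 heart cells and 15 UMIs in 7 spleen cells, went with less Rora. Heart cells with an Il10 UMI before thinning had 76.0 CPM of Rora and those without 117 CPM (ratio 0.648, 0.586 to 0.714). Their Ahr levels were 16.0 and 15.2 CPM (1.06, 0.841 to 1.32). The 103 heart cells with a thinned Il10 UMI had 23.9 CPM of Ahr and the others 15.1 CPM (1.59, 0.998 to 2.40). In that thinned split the Rora ratio was 0.741 (0.586 to 0.924). Ccr8, a receptor of Th2 and regulatory cells, had 386 UMIs in heart and 5 in spleen. Split by a Ccr8 UMI before thinning, heart cells were even in Rora, at 112 CPM with and 112 CPM without.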
